A study of Saccharomyces cerevisiae with 16 samples.

Results

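The 7 genes described here, DAN1, DAN4, PAU24, TIR1, TIR2, TIR3 and TIR4 of the budding yeast Saccharomyces cerevisiae, encode cell wall mannoproteins that are known for their expression without oxygen. They were chosen by name as the DAN and TIR genes plus PAU24 (also called DAN3), and were selected on their wide spread of levels over the 16 arrays, which had been seen before. PAU23, also called DAN2, was not among them. It was measured with a range of 0.43 (log2) and is given below with the other seripauperins, a related family. The chosen genes are 7 of 5449 genes measured. Each had 1 probe set, among 5498 paired with exactly 1 S. cerevisiae gene and 10928 in the table. The levels that chose the genes are given below as a description, with no test.

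Total RNA of 8 strains was hybridised to 16 Affymetrix Yeast Genome 2.0 arrays, 2 per strain, after growth at 30 °C up to an optical density of 0.5. The 7 mutant strains each carry 1 aspartate-to-glutamate substitution in a subunit of CCT, the ring-shaped chaperonin of 8 different subunits that folds actin and tubulin: D96E in CCT1 (MA1), D90E in CCT2 (MA2), D91E in CCT3 (MA3), D117E in CCT5 (MA5), D89E in CCT6 (MA6), D96E in CCT7 (MA7) and D98E in CCT8 (MA8). The remaining strain, WT, carries no such substitution. All 8 strains, WT included, have a CBP tag on CCT6 and share the alleles leu2, leu2-3, trp1, ura3-52 and gal2, as well as prb1-1122, pep4-3 and prc467 at genes of vacuolar proteases. The tag is marked with URA3 in MA1, MA2, MA3, MA5, MA7 and MA8, and with KanMX4 in MA6 and WT. Nothing in the labels says that the arrays of a strain came from separate cultures, so the spread between them may be technical in part.

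The proteins of this family are rich in serine and threonine, carry O-linked mannose and are anchored through a glycolipid before they are linked to the glucan of the wall. In yeast grown with oxygen, heme keeps their genes repressed through factors that include Rox1, Mot3 and the Tup1-Cyc8 corepressor. When oxygen or sterol is short, the zinc-cluster factor Upc2 activates them, and they replace the main mannoproteins of the aerobic wall, Cwp1 and Cwp2.

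URA3, which makes a uracil synthesis enzyme and marks the tag, contradicted 6 labels. By the labels only MA6 and WT lack it as a marker, and its level was 11.70 and 11.90 on the arrays labelled MA6 and 8.07 and 11.95 on those labelled WT. Further low levels were 8.12 on MA5 replicate 1, 7.23 on MA2 replicate 2 and 7.30 on MA8 replicate 1. A strain name below therefore means the arrays labelled with it, and no direction between strains is firmer than those labels.

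TIR1, TIR3 and TIR4, which yeast needs in order to grow without oxygen, differed by several-fold between arrays of the same label. On the log2 scale of the deposited levels, TIR1 had 10.35 and 12.75 in MA1, 12.71 and 12.93 in MA2, 10.29 and 12.35 in MA3, 9.21 and 13.27 in MA5, 10.37 and 12.82 in MA6, 12.81 and 10.87 in MA7, and 12.94 and 13.03 in MA8, against 9.31 and 12.95 in WT, replicate 1 first in each strain. The 6 lowest arrays were the first replicates of MA1, MA3, MA5, MA6 and WT and the second of MA7. They lay at or below 10.87 and the next array at 12.35, a gap of 2.80-fold, so each of these 6 labels holds 1 low and 1 high array. In bulk RNA, fewer cells that express a gene and less of its RNA per cell cannot be told apart.

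The same 6 arrays were the lowest for TIR3 and TIR4, as they were for 83 of all 5498 tested probe sets (1.51%). TIR3 had 9.59 and 11.73 in MA1, 11.40 and 11.99 in MA2, 9.77 and 11.32 in MA3, 9.45 and 12.34 in MA5, 9.78 and 11.82 in MA6, 11.72 and 10.20 in MA7, and 11.99 and 12.12 in MA8, against 9.40 and 11.85 in WT. TIR4 had 8.997 and 11.31 in MA1, 11.12 and 11.43 in MA2, 9.41 and 10.67 in MA3, 9.14 and 11.995 in MA5, 9.17 and 11.51 in MA6, 11.50 and 9.98 in MA7, and 11.47 and 11.65 in MA8, against 9.06 and 11.49 in WT. The step between the sixth and the seventh array from the bottom was 2.18-fold for TIR3 and 1.61-fold for TIR4. All 3 genes were highest on MA5 replicate 2, whose partner was among the 6 lowest.

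DAN1, whose product has been linked to sterol uptake in anaerobic cells, had the widest range of the 7 genes. It had 8.30 and 11.43 in MA1, 11.23 and 11.66 in MA2, 9.27 and 10.98 in MA3, 6.33 and 11.96 in MA5, 8.51 and 11.36 in MA6, 11.46 and 9.95 in MA7, and 11.61 and 11.89 in MA8, against 6.14 and 11.61 in WT. Its 6 lowest arrays were those of TIR1, but they did not lie together. MA5 replicate 1 and WT replicate 1 stood 3.90-fold below the next array, MA1 replicate 1, with MA6 replicate 1, MA3 replicate 1 and MA7 replicate 2 above it in that order. From the lowest to the highest array DAN1 spanned 56.5-fold, the second widest range of the 5498 probe sets, where the median range was 0.50 on the log2 scale.

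PAU24 belongs to the seripauperins, short proteins akin to the Tir proteins and encoded by many near-identical genes. Its level was 8.01 and 10.86 in MA1, 10.47 and 11.18 in MA2, 9.52 and 10.40 in MA3, 7.01 and 11.03 in MA5, 8.11 and 11.04 in MA6, 10.47 and 10.26 in MA7, and 11.53 and 11.22 in MA8, against 6.70 and 9.99 in WT. The 5 lowest arrays were again among the 6 that were lowest for TIR1, but MA7 replicate 2 was seventh at 10.26 and WT replicate 2 sixth at 9.99. The probe set carries the suffix that Affymetrix gives to probes that may bind other transcripts, so its level may hold RNA of other seripauperins. The other 6 genes have probe sets without that suffix.

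TIR2 and DAN4 followed the rest only in part, and over narrower ranges. TIR2, which like TIR1 is known to be induced by cold, had 9.23 and 9.88 in MA1, 9.58 and 9.94 in MA2, 8.93 and 9.78 in MA3, 9.52 and 9.73 in MA5, 8.97 and 9.68 in MA6, 9.37 and 9.40 in MA7, and 9.91 and 9.99 in MA8, against 9.64 and 9.84 in WT. Its lowest arrays were MA3 replicate 1 and MA6 replicate 1, followed by MA1 replicate 1, MA7 replicate 1, MA7 replicate 2 and MA5 replicate 1. All of these except MA7 replicate 1 were also low for TIR1. MA5 replicate 1 and WT replicate 1, the lowest arrays for TIR1, TIR3 and DAN1, had 9.52 and 9.64, beside a TIR2 median of 9.66 over all arrays. TIR2 is the immediate neighbour of TIR4 on chromosome XV, and TIR4 spanned 7.99-fold over the arrays where TIR2 spanned 2.10-fold.

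DAN4, the neighbour of DAN1 near the end of chromosome X, spanned 2.01-fold. It had 9.10 and 8.91 in MA1, 8.72 and 9.30 in MA2, 9.51 and 9.24 in MA3, 8.53 and 9.18 in MA5, 9.05 and 9.03 in MA6, 8.63 and 9.49 in MA7, and 9.13 and 9.38 in MA8, against 8.50 and 9.13 in WT. WT replicate 1 and MA5 replicate 1 were lowest, as for DAN1, but MA3 replicate 1 and MA7 replicate 2 were highest. DAN4 was also the single one of the 7 genes whose mean over the arrays lay in the dimmest 25% of the tested probe sets.

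**Figure D1:**
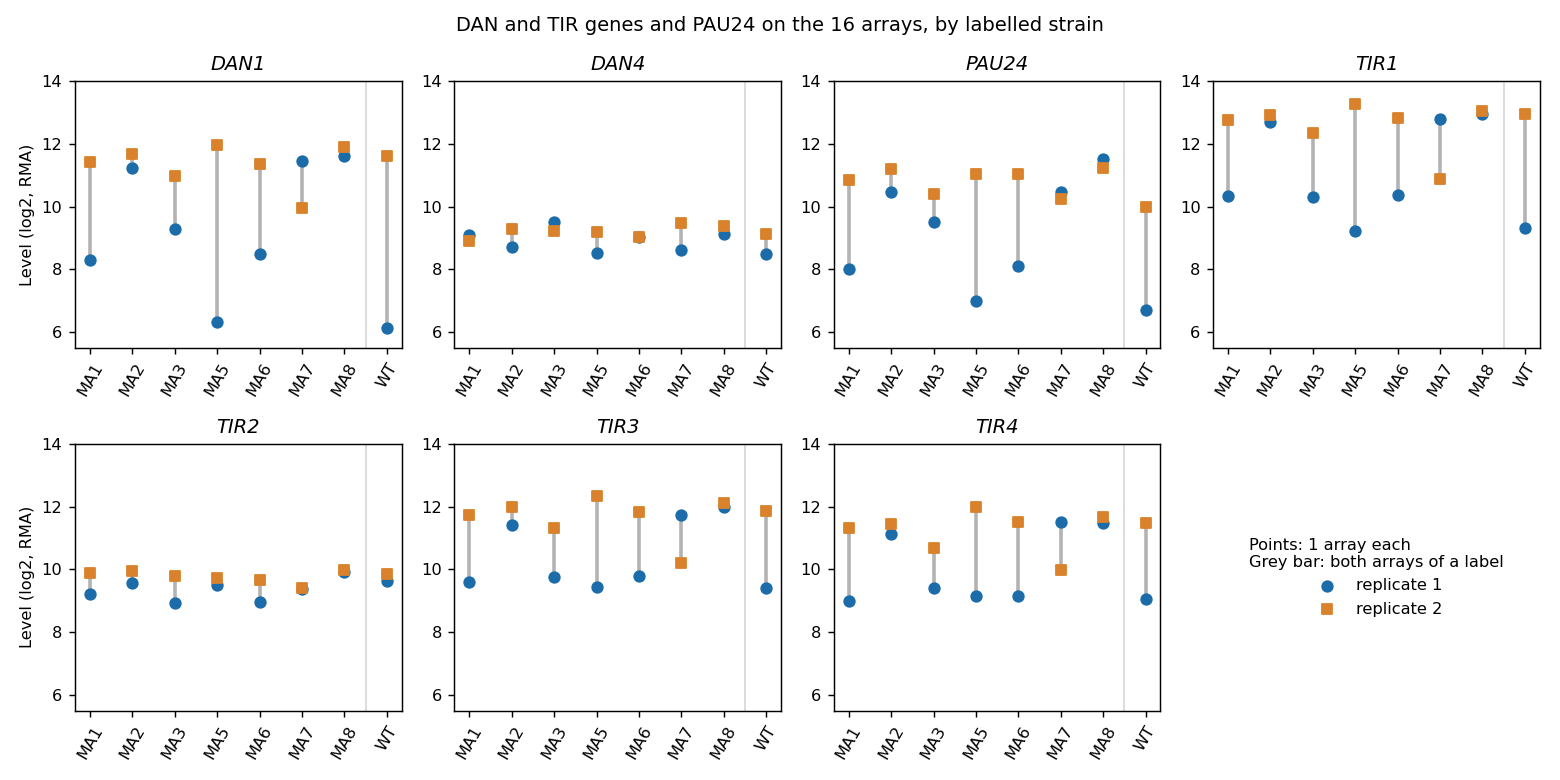
Level (log2, RMA) of each of the 7 genes by labelled strain, mutants left of WT. Each point is 1 array and the grey bar joins both arrays of a label; for DAN1, TIR1, TIR3 and TIR4 the arrays of MA1, MA3, MA5, MA6, MA7 and WT lie far apart, while TIR2 and DAN4 stay within 8.50 and 9.99.

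The arrays MA3 replicate 1 and MA7 replicate 2 carried a shift of the whole of chromosome X. The median deviation of its 317 probe sets from their own 16-array medians was 0.71 and 0.77 (log2) on these arrays and between -0.03 and 0.02 on the other 14, and the medians of the other chromosomes lay between -0.09 and 0.05 on all arrays. With this median subtracted, DAN4 was 8.79 on MA3 replicate 1 and 8.72 on MA7 replicate 2, among the 6 lowest arrays in place of the top. DAN1 then had 8.56 and 9.18 on these arrays, against 9.27 and 9.95 as deposited, and kept its 6 lowest arrays in the same order. The DAN1 levels of these arrays thus came nearer to those of MA1 replicate 1 and MA6 replicate 1.

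**Figure D2:**
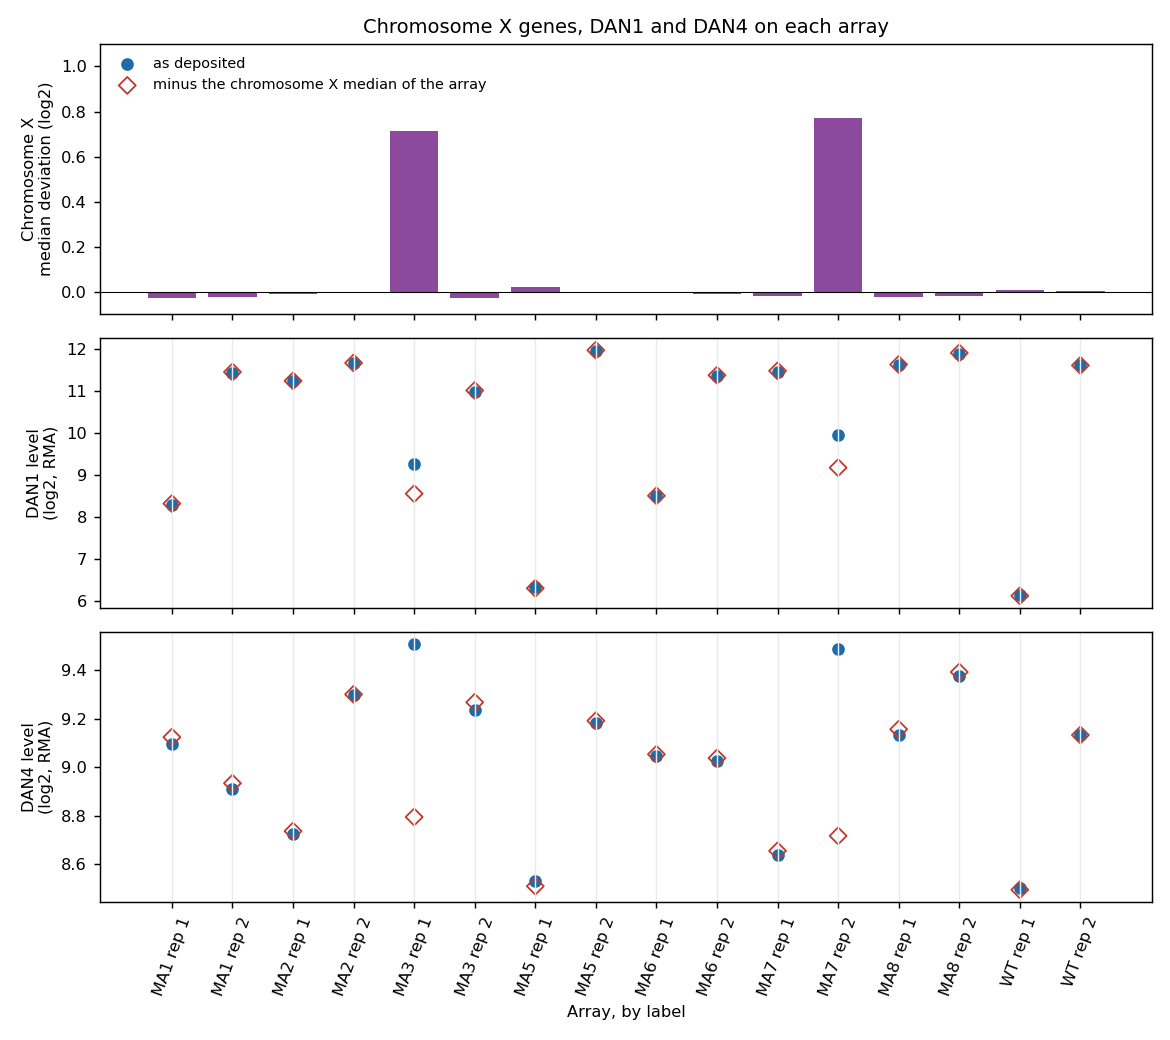
Top, median deviation of chromosome X probe sets (log2) on each array; below, levels of DAN1 and DAN4 (log2, RMA) as deposited and minus that median. MA3 replicate 1 and MA7 replicate 2 stand at 0.71 and 0.77, and DAN4 on them is 8.79 and 8.72 after subtraction, with 9.51 and 9.49 as deposited.

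Within labels, the DAN1 difference between replicates was the largest of all 5498 tested probe sets in both MA5 (49.4-fold) and WT (44.3-fold). On the lower array of each label DAN1 was below the median of all 10928 probe sets, so these folds may depend on background. In MA5 the replicates differed by 16.6-fold for TIR1, 16.2-fold for PAU24, 7.39-fold for TIR3 and 7.22-fold for TIR4. In WT the corresponding differences were 12.5-fold, 9.78-fold, 5.49-fold and 5.37-fold. For DAN4 and TIR2 they were 1.57-fold and 1.16-fold in MA5, against 1.55-fold and 1.15-fold in WT, where the median probe set differed by 0.19 (log2) in either strain.

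The labels MA2 and MA8 alone had both arrays outside the 6 that were lowest for TIR1. In MA8 the 7 genes differed by 1.06-fold to 1.24-fold between replicates, and in MA2 by 1.17-fold to 1.64-fold. Replicate 1 was the lower array for TIR1, TIR3, TIR4 and DAN1 in every label except MA7.

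**Figure D3:**
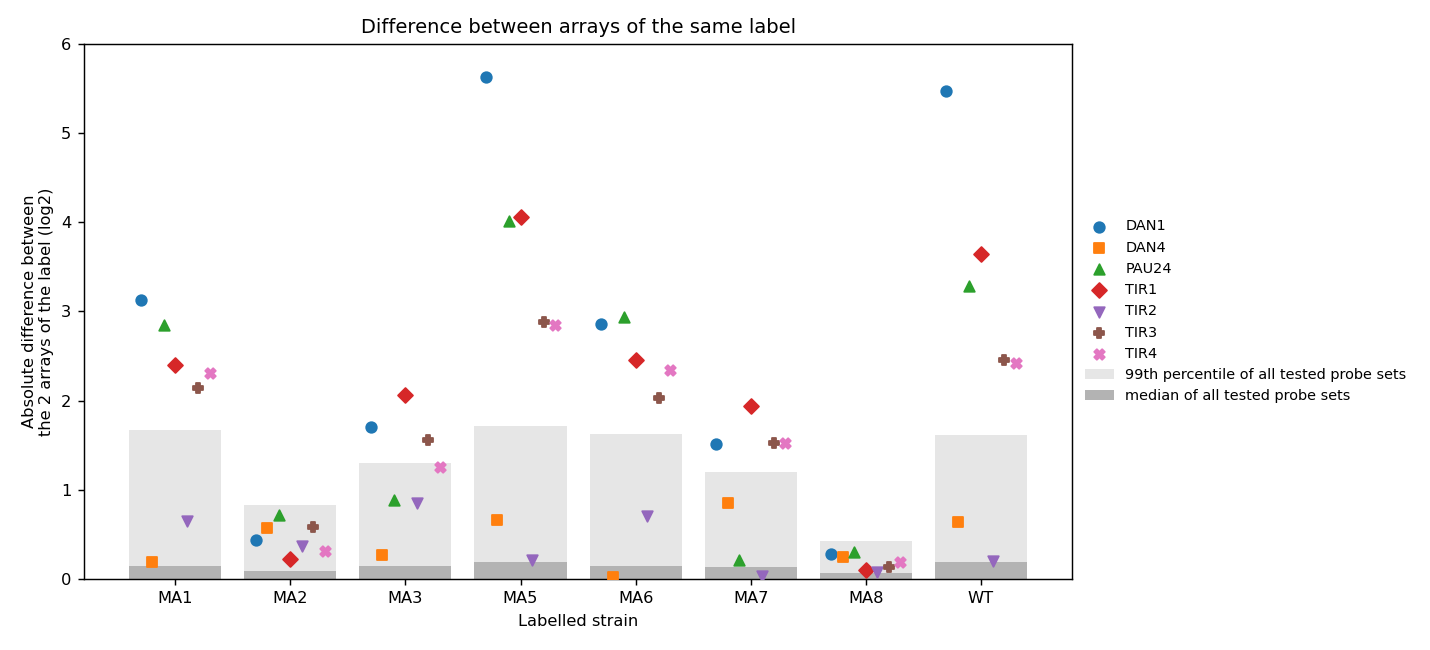
Absolute difference between both arrays of a label (log2) for each of the 7 genes, by strain, with the median and the 99th percentile over the 5498 tested probe sets as grey bars. DAN1 reaches 5.63 in MA5 and 5.47 in WT, whereas all 7 genes stay below the 99th percentile of 0.42 in MA8.

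Some arrays of different labels matched closely in these genes. By the root mean square difference over the 7 genes, 0 of the 16 arrays had the other array of its label as the nearest one. Each array had a single candidate of its own label and many of other labels, and the same count was not made over all probe sets. MA5 replicate 1 and WT replicate 1 differed by 0.15 (log2), with DAN1 at 6.33 and 6.14. The first replicates of MA1 and MA6 differed by 0.16, with DAN1 at 8.30 and 8.51, and their second replicates by 0.14, with DAN1 at 11.43 and 11.36. MA3 replicate 1 and MA7 replicate 2 were nearest to each other at 0.54. The 8 same-label pairs had a median difference of 1.76, ranging from 0.21 in MA8 to 3.41 in MA5, and the other 112 pairs a median of 1.20.

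For DAN1 the order of means was WT, MA5, MA1, MA6, MA3, MA7, MA2 and MA8, from 8.88 ± 3.87 in WT to 11.75 ± 0.20 in MA8 (SD, n = 2 each). For TIR1 the lowest mean was also that of WT (11.13 ± 2.57) and the highest that of MA8 (12.99 ± 0.07). TIR3 and TIR4 were lowest in MA3, at 10.55 ± 1.098 and 10.04 ± 0.89. Between neighbours in the order, a difference above the SD of both strains occurred for 1 of 7 neighbour steps in PAU24, TIR1 and TIR4, in each case between MA2 and MA8, and for none in the other 4 genes. The same count was not made over all probe sets, and URA3 opposed the labels of MA2 replicate 2 and MA8 replicate 1. For DAN1 the widest gap between strain means was 2.87, and the widest gap inside a label 5.63.

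Each mutant was compared with WT by label, to ask what each substitution does to expression. In every mutant except MA6 the labelled tag marker also differs from that of WT, so substitution and marker cannot be told apart. URA3 further opposed the labels of WT replicate 2 and of both MA6 arrays. In limma, 0 of 5498 probe sets (0%) passed an adjusted p of 0.05 in any of the 7 comparisons, and so none of the 49 tests of these genes did. None of the 49 reached an unadjusted p under 0.05 either. The share of all tested probe sets that did so was 11.5% for MA6, 8.97% for MA7, 4.69% for MA3, 4.13% for MA1, 4.06% for MA8, 0.746% for MA2 and 0.327% for MA5. The unmoderated model also made 0 calls. All comparisons share the WT arrays, so the 41 of 49 changes above 0 are not repeated observations. Over all 5498 tested probe sets, the number above 0 ran from 1969 in MA3 to 2743 in MA5.

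The largest change by moderated t in each mutant belonged mostly to PAU24. It averaged 11.38 ± 0.22 in MA8 and 8.35 ± 2.33 in WT (SD, n = 2 each), which is 3.03 ± 1.50 higher on the log2 scale (SE, limma adjusted p = 0.97). PAU24 also led in MA2 with 2.48 ± 1.50, in MA7 with 2.01 ± 1.50, in MA1 with 1.09 ± 1.50 and in MA5 with 0.67 ± 1.50. Without WT replicate 1 the PAU24 change was 1.38 in MA8, 0.84 in MA2, 0.37 in MA7, -0.56 in MA1 and -0.97 in MA5. In MA3 the leading gene was DAN4, at 9.37 ± 0.19 in MA3 and 8.82 ± 0.45 in WT, a change of 0.56 ± 0.32 (limma adjusted p = 0.79). With each chromosome centred on its own median that DAN4 change was 0.22, and without WT replicate 1 it was 0.24. In MA6 it was TIR2, at 9.32 ± 0.50 in MA6 and 9.74 ± 0.14 in WT, a change of -0.41 ± 0.31 (limma adjusted p = 0.49). Leaving out MA6 replicate 1 gave -0.06, and leaving out MA6 replicate 2 gave -0.77.

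The mean of the 7 mutants was also compared with WT, a contrast that a few of them can carry. Without WT replicate 1 its sign turned for DAN1, DAN4, TIR1, TIR3 and TIR4, but not for PAU24 and TIR2. DAN1 averaged 10.42 ± 1.71 over the 14 mutant arrays and 8.88 ± 3.87 over the WT arrays (SD, n = 14 and 2), a difference of 1.55 ± 1.56 (log2, SE; limma adjusted p = 0.74). Without WT replicate 1 the change was -1.19, and without WT replicate 2 it was 4.28. For TIR1 the change was 0.78 ± 1.19 with all arrays, -1.04 without WT replicate 1 and 2.60 without WT replicate 2. TIR3 (0.46 ± 0.90), TIR4 (0.39 ± 0.91) and DAN4 (0.27 ± 0.25) likewise were below 0 without WT replicate 1, at -0.77, -0.82 and -0.049. PAU24 (1.73 ± 1.13) was 0.09 there, and TIR2 was below 0 in each case (-0.17 ± 0.23). Without the 6 arrays that URA3 opposes, a setting chosen after the data were seen that leaves 6 mutants, without MA6, and WT replicate 1 as the WT array, the change of the mean was 4.82 for DAN1, 3.71 for PAU24 and 2.98 for TIR1, with a smallest limma adjusted p of 0.18.

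**Figure D4:**
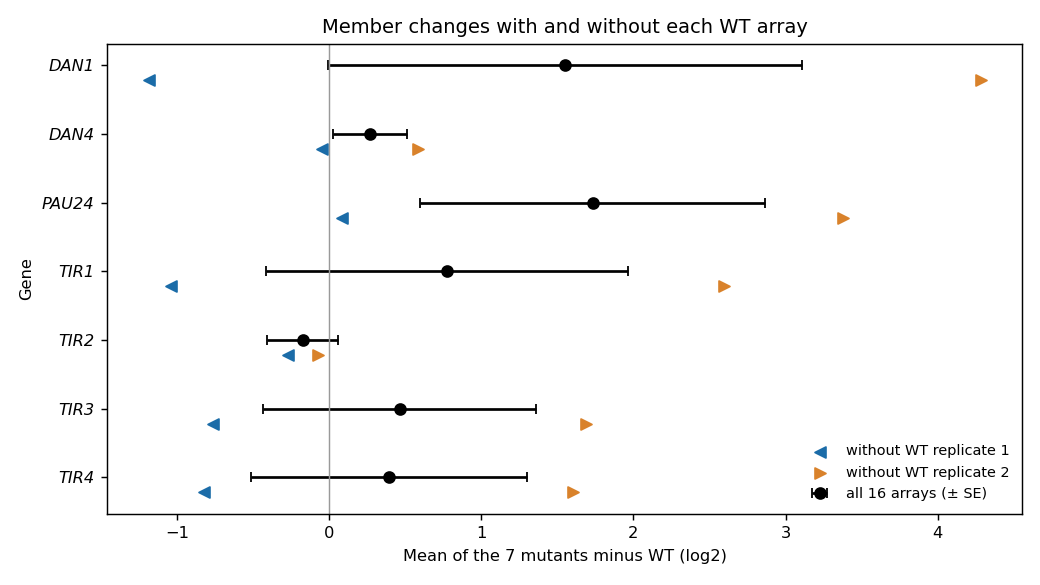
Mean of the 7 mutants minus WT (log2, black, ± SE) for each gene, with the value without either WT array in colour. For DAN1 the value is 1.55 with all arrays, -1.19 without WT replicate 1 and 4.28 without WT replicate 2.

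Whether equivalent mutations differ in effect, the subject of the series title, was tested by a moderated F over their means. It called 0 of 5498 probe sets (0%) after adjustment and 147 (2.67%) before it, and gave these genes adjusted p values from 0.89 for TIR2 to 0.94 for DAN1. The residual SD within strains was 2.31 for DAN1, the largest of all tested probe sets, 1.76 for TIR1, 1.68 for PAU24, 1.34 for TIR4 and 1.33 for TIR3, where the median over all tested probe sets was 0.13. DAN4 and TIR2 had 0.36 and 0.34.

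The order of arrays seen for TIR1 was then looked up across the table. Its 6 lowest arrays were the 6 highest for 40 of 5498 probe sets (0.728%), fewer than the 83 with the same arrays lowest. Among the 7 genes it held for DAN1, TIR1, TIR3 and TIR4, which is part of how they were chosen.

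Of the hypoxic genes, repressed by heme through Rox1, 2 of 9 had the same 6 lowest arrays, beside 1.51% of all tested probe sets. One was ANB1, the hypoxic form of the translation factor eIF5A, which had 8.97 and 11.89 in MA1, 11.58 and 12.22 in MA2, 10.02 and 11.32 in MA3, 8.62 and 12.30 in MA5, 9.29 and 12.09 in MA6, 11.79 and 10.50 in MA7, and 12.06 and 12.33 in MA8, against 8.51 and 11.82 in WT. The other was HEM13, of heme synthesis, named after its values were seen, with a narrower range of 0.99 (log2). AAC3, the hypoxic ADP/ATP carrier, was lowest on MA3 replicate 1 (8.04) and had 9.40 on WT replicate 1, an order closer to that of TIR2. CYC7, the hypoxic cytochrome c, was highest on MA6 replicate 1 (11.49) and lowest on WT replicate 1 (9.31). FET4, a low-affinity iron transporter, ranged from 9.59 to 10.89.

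Of the 8 regulators, UPC2 and HAP1 had the same 6 lowest arrays, beside 1.51% of all tested probe sets. UPC2, the activator of the DAN and TIR genes, had 9.04 and 9.49 in MA1, 9.51 and 9.83 in MA2, 8.90 and 9.44 in MA3, 8.92 and 10.04 in MA5, 9.11 and 9.59 in MA6, 9.55 and 8.62 in MA7, and 9.62 and 9.64 in MA8, against 9.05 and 9.73 in WT. Its highest array, MA5 replicate 2, was also the highest for DAN1, TIR1, TIR3 and TIR4. HAP1, the heme-responsive activator, lay between 10.14 and 10.65 on the 6 arrays and between 10.80 and 11.05 on the other 10. The ranges of SUT1, a regulator of sterol uptake, and of TUP1, the corepressor, were 0.68 each. TUP1 was highest on MA5 replicate 1 and WT replicate 1 (12.78 and 12.74). It was lowest on MA6 replicate 1 and MA1 replicate 1 (12.10 and 12.16). ROX1 and MOT3, named after their values were seen, ranged over 0.63 and 0.57. ROX1 was highest on MA1 replicate 1 (11.54) and lowest on MA3 replicate 1 (10.91). MOT3 was highest on the first replicates of MA1, WT, MA6, MA5 and MA3, from 10.30 down to 10.055. On MA7 replicate 2 MOT3 had 9.90. Here 1 of 8 regulators, UPC2, had a range of at least 1 (log2), as did 16.6% of all tested probe sets.

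Sterol import depends on the transporters Aus1 and Pdr11. AUS1 had 9.79 and 11.17 in MA1, 10.34 and 11.40 in MA2, 9.30 and 11.11 in MA3, 9.68 and 11.32 in MA5, 9.65 and 11.08 in MA6, 10.54 and 9.65 in MA7, and 11.28 and 11.41 in MA8, against 9.68 and 11.18 in WT. The 6 lowest arrays were those of TIR1, and the first replicates of MA2 and MA7 lay between them and the rest. PDR11 was lowest on MA7 replicate 2 (8.12) and MA3 replicate 1 (8.19), then came WT replicate 1 (8.80) and MA5 replicate 1 (9.03). It was 9.73 on MA6 replicate 1, close to its median of 9.75, and 9.87 on MA1 replicate 1, above it.

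Among the other seripauperins, 12 of 23 genes were measured, and PAU5 and PAU9 had the same 6 lowest arrays, beside 1.51% of all tested probe sets. Except for PAU5, PAU17 and PAU23, the 12 were read by probe sets whose suffix marks probes that may bind other transcripts, so their levels may hold 1 shared signal. PAU5, through a probe set that carries no cross-binding suffix, ranged from 8.09 on MA5 replicate 1 to 10.76 on MA5 replicate 2. In all, 11 of the 12 had a range of at least 1, as did 16.6% of all tested probe sets. PAU23, also called DAN2, was the exception with a range of 0.43; it and PAU17 are named after their values were seen.

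Among 7 other wall proteins with a glycolipid anchor, none had the same 6 arrays at the bottom or at the top. TIP1, a close relative of the Tir proteins, was between 12.92 and 13.17 on MA3 replicate 1, MA5 replicate 1, MA7 replicate 2 and WT replicate 1, and 13.75 or more elsewhere. CWP1 was highest on MA1 replicate 1 and MA6 replicate 1 (12.97 and 12.89), where DAN1 was low, and had 11.98 on MA5 replicate 1 and 12.21 on WT replicate 1. It was lowest on MA8 replicate 1 at 11.39. SPI1, a stress-induced wall protein, was highest on MA6 replicate 1 (10.73) and lowest on MA7 replicate 2 (9.07). SED1, an abundant wall protein, was highest on MA6 replicate 1 (14.67) and lowest on WT replicate 1 (13.67).

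**Figure D5:**
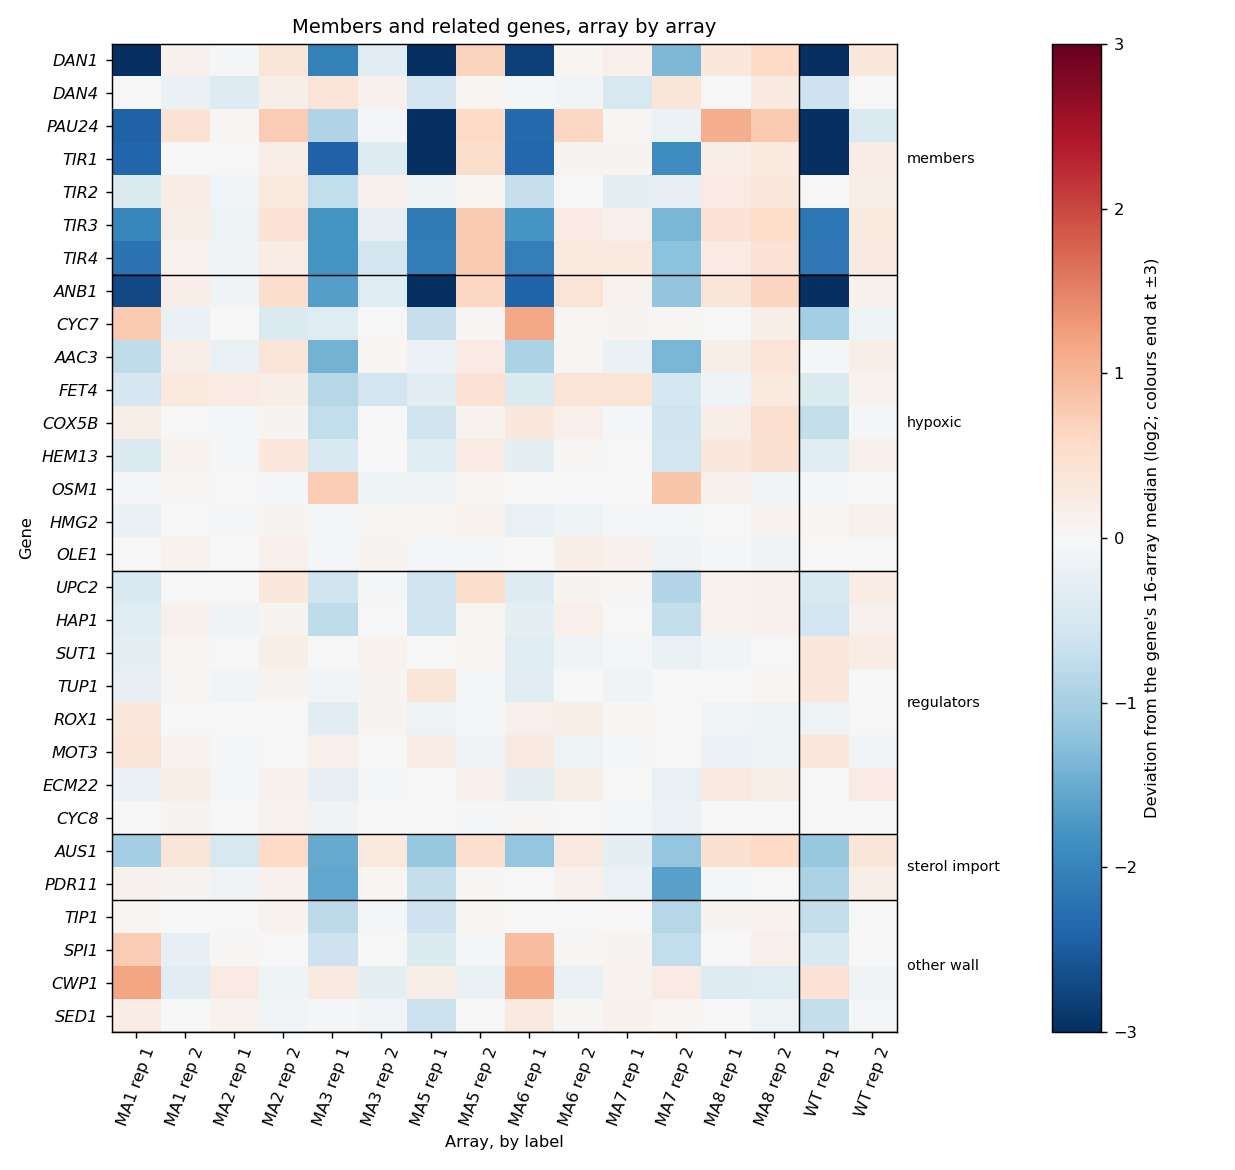
Deviation of each gene from its own median over the 16 arrays (log2, blue below and red above, colours ending at ±3) for the 7 genes, the hypoxic, regulator and sterol import lists and 4 other wall genes, with arrays by label and WT at the right. The first replicates of MA1, MA3, MA5, MA6 and WT and the second of MA7 are blue for DAN1, TIR1, TIR3, TIR4 and ANB1, and DAN4 and TIR2 are pale.

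Compared with WT, genes of the named lists were not called either. In the mean of the 7 mutants against WT, 6 of the 7 DAN and TIR genes were above 0 with a median of 0.46 (log2), as were 2543 of the 5498 tested probe sets, with a median of -0.01. Without WT replicate 1, PAU24 alone of the 7 was above 0, at 0.09. The median was 0.15 for the 12 other seripauperins, 0.08 for the 9 hypoxic genes, 0.12 for the 2 sterol importers, 0.20 for the 7 other wall genes and -0.05 for the 8 regulators. In limma 0 of these passed, and 4.69% of all tested probe sets had an unadjusted p under 0.05.

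The probe sets most like the 7 genes were ranked by Pearson r with the mean of their deviations over the 16 arrays, among 898 other probe sets with a range of at least 1. The value is a description with no p, since the arrays fall into separate levels. ANB1 came first (r = 0.996), then SET4, a SET-domain protein (0.967), PAU5 (0.959), HES1, a sterol-binding protein (0.943), YML083C (0.940), PBI1 (0.940), HUG1, an inhibitor of ribonucleotide reductase (0.939), PAU9 (0.927), FHN1 (0.895) and YHK8 (0.891). ANB1 and SET4 lie on chromosome X, as DAN1 and DAN4 do, and so share its shift on MA3 replicate 1 and MA7 replicate 2. All 10 except HUG1 had the same 6 lowest arrays as TIR1, which follows largely from ranking them by likeness to these genes. Over all tested probe sets 83 of 5498 (1.51%) had them. Without the 2 arrays farthest from the median, r was 0.995 for ANB1 and 0.859 for YHK8, the lowest of the 10.

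Genes closest to each single member parted them in the same way. ANB1 was among the 3 closest to DAN1, PAU24, TIR1, TIR3 and TIR4, and PBI1 and HES1 were among those closest to TIR1, TIR3 and TIR4. For TIR2 the closest were AAC3 (r = 0.891), WTM2 (0.866) and AUS1 (0.852). For DAN4 they were JHD2, a histone demethylase (0.890), ASG7 (0.823) and YIL014C-A (0.813), of which JHD2 and ASG7 lie on chromosome X. Between members, r over the 16 arrays was 0.992 for TIR3 and TIR4 and 0.973 for DAN1 and TIR1, against 0.707 for TIR2 and TIR4 and 0.441 for DAN1 and DAN4. Without MA5 replicate 1 and WT replicate 1, the arrays farthest from the medians of DAN1 and TIR1, r was -0.194 for DAN1 and DAN4. With the same arrays left out, TIR2 had 0.859 with DAN1, against 0.522 over all arrays, and 0.870 with TIR1, against 0.642. For TIR2 and TIR4 the arrays left out were MA3 replicate 1 and MA6 replicate 1, farthest from the TIR2 median, and r was 0.615. That value rests on other arrays and cannot be set against those of TIR2 with DAN1 and TIR1.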

How the data were processed

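The authors deposited log2 expression levels, 1 per probe set and array. Per the submitters' processing notes these were made with Partek by RMA (versions not given in the sources used here). RMA normalizes between arrays, so levels are relative, and levels of different probe sets are not set against each other. The deposited log2 medians over the 5498 tested probe sets were 10.46 to 10.50 on the 16 arrays. Over all 10928 probe sets they spread more widely, from 6.40 to 7.12. Probe sets were named through the platform annotation and the R64 gene table, which served only for names, chromosomes and neighbours.

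Titles gave the groups. With limma 3.58.1 (R 4.3.3), strain means were fitted and tested two-sided by empirical Bayes, with Benjamini-Hochberg adjustment over all 5498 probe sets and a threshold of 0.05. The fit was tried on simulated data whose spread between replicates was kept below that of these 7 genes. That trial therefore does not show whether changes in these genes could be called. Array-by-array values used Python 3.11.15, numpy 2.4.6 and pandas 2.3.3. Named genes were the 7 members, up to 4 genes with the widest range in each of the hypoxic, aerobic, regulator, sterol import and other wall lists, the 10 most like and 5 most opposite to the members, and the 3 closest to each. The members, lists and tests were chosen with earlier results of these data known. Precision is limited by having 2 arrays per strain. Figures used matplotlib 3.10.9. Alternatives covered normalization, dim probe sets, the variance model, a replicate block and leaving out arrays.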

Additional observations from a re-analysis of the deposited data

How the results depend on the processing

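Under quantile normalization, median centring, chromosome centring, removal of the dimmest 25%, all probe sets, an intensity trend and the unmoderated model, every comparison had 0 calls. The first 3 of these settings can move a change, and none of the 14 changes named for the 7 genes turned its sign under them. The others leave the changes as they are, and removing the dimmest 25% leaves DAN4 untested. Leaving out 1 array gave 0 calls in each comparison, and ranges of -1.19 to 4.28 for DAN1, -0.049 to 0.59 for DAN4, -1.04 to 2.60 for TIR1, -0.77 to 1.69 for TIR3 and -0.82 to 1.61 for TIR4 over all mutants against WT. They were -0.56 to 2.73 for PAU24 in MA1 and -1.34 to 2.68 for PAU24 in MA5, 0.84 to 4.13 in MA2, 0.37 to 3.66 in MA7 and 1.38 to 4.67 in MA8. For DAN4 in MA3 they were 0.24 to 0.87, and for TIR2 in MA6 -0.77 to -0.06. The lone array of a strain is then assumed to vary like the other strains. Without the 6 arrays opposed by URA3, added after the data were seen, each of the 6 mutants left and their mean had 1 call, URA3 itself, which follows from how those arrays were chosen. With the replicate block every comparison had 0 calls. Each strain has 1 array of each number, so the block cannot move a change, and that of DAN1 in the mean of the mutants stayed 1.55. Its SE was 1.19 with the block and 1.56 without it. Same-numbered arrays deviated together with r from -0.66 to 0.93 over 28 pairs of strains, above 0 in 17, so the numbers were not taken to pair the samples.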

Other observations

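Genes of ergosterol synthesis, the pathway that needs oxygen, varied little on the arrays where the DAN and TIR genes varied most. None of 24 had a range of at least 1 (log2), and their median range was 0.24, against 0.50 over all tested probe sets. ERG3, ERG4 and NCP1, named after their values were seen, had the same 6 lowest arrays as TIR1, beside 1.51% of all tested probe sets. Among genes used in aerobic cells in place of a hypoxic form, CYC1 (cytochrome c) was highest on MA7 replicate 2 (13.35) and MA3 replicate 1 (13.17), with a range of 1.08. CYC1 lies on chromosome X, whose median was raised by 0.77 and 0.71 on these arrays, and its next highest levels were 13.01 on MA6 replicate 1 and 12.95 on MA1 replicate 1. In the same list COX5A, HMG1 and PET9 had ranges of 0.39, 0.24 and 0.24.

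The genes most opposite to the 7 by Pearson r over the 16 arrays were MNN1, a mannosyltransferase of the Golgi that adds terminal mannose to glycoproteins (r = -0.956), ALP1, a transporter of basic amino acids (-0.873), HXT4, a glucose transporter (-0.858), CLN2, a G1 cyclin (-0.814), and PDR12, an exporter of weak acids (-0.806). MNN1 and CLN2 had as their 6 highest arrays the 6 that were lowest for TIR1, as did 40 of 5498 tested probe sets (0.728%). The ranking by opposite r favours such genes. MNN1 had 10.9995 and 10.06 in MA1, 10.30 and 10.28 in MA2, 10.75 and 10.19 in MA3, 11.12 and 10.11 in MA5, 10.95 and 10.20 in MA6, 10.32 and 10.83 in MA7, and 9.82 and 9.998 in MA8, against 11.12 and 10.20 in WT. HXT4 was 10.33 on MA5 replicate 1 and 10.36 on WT replicate 1, and 7.84 on MA3 replicate 1, so it did not follow all 6 arrays.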
